A study of Phaseolus coccineus with 4 samples.

Results

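Groups of WOX9-like regions packed closely along a chromosome were examined in Phaseolus coccineus, the scarlet runner bean. A region was a stretch where enriched peaks of ChIP replicates 1 and 2 overlapped by at least 1 bp and were merged. Merging both lists gave 35556 stretches, of which 20728 held a peak of each replicate and so were regions in this sense. Of these 20728, the 19479 that were narrower than 1500 bp and on chromosomes 1 to 11 were kept. A cluster was a run of 4 or more kept regions in which the end of each and the start of the next were at most 3000 bp apart. By this rule 2689 regions, 13.8% of those kept, formed 581 clusters. Members were chosen by measured peak positions and by no other value, so the number, length and spacing of the clusters are descriptions without a test.

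The series holds 4 samples, 2 of chromatin precipitated with an antibody against a peptide of the WOX9-like protein and 2 of input chromatin. All came from the cultivar Hammond's Dwarf Red Flower, with no other genotype or treatment named in the labels. Tissue was the micropylar part of seeds taken 6 days after hand pollination, at the globular embryo stage. Such pieces hold embryo, suspensor and other seed tissues together, so cell types cannot be told apart, and whether the replicates came from separate plants is not stated. Each ChIP replicate gave one peak list with the fold enrichment of every peak over a control, whereas the input samples had no values of their own here. Per the deposited peak names, the control was called noAb for replicate 1 and input for replicate 2, so the 2 folds of a region may rest on controls of different kinds.

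WOX9 belongs to the WUSCHEL-related homeobox family of plant transcription factors, which bind DNA through a homeodomain. In Arabidopsis, WOX8 and WOX9 act in the basal cells of the young embryo, which give rise to the suspensor. Binding regions of plant transcription factors that lie near each other can belong to the same gene or to neighbouring genes. ChIP-seq by itself tells how strongly a stretch of chromatin was enriched and does not tell which gene it serves. Genes and sequence at the clusters were not analysed here, because no genome of the files' build was at hand, and the clusters are named by their positions, counted from 1, on the sequences that the peak names tag as Pv442.

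Most clusters were small and short. Of the 581 clusters, 355 held 4 regions, 135 held 5, 56 held 6, 25 held 7 and 9 held 8, and a single cluster on chromosome 7 held 11. Cluster length ran from 2651 to 18306 bp with a median of 6632 bp (quartiles 5117 and 8087 bp). Together they covered 4.0 Mb, which is 0.781% of the 512.4 Mb spanned by kept regions. Within the median cluster 43.8% of the length lay in member regions, and this share ran from 19.1% to 88.3%. The rest lay between members, where some clusters held further peaks outside the rule. The members themselves were 212 to 1499 bp wide, and 44 were 1400 bp or wider, next to the width limit.

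**Figure D1:**
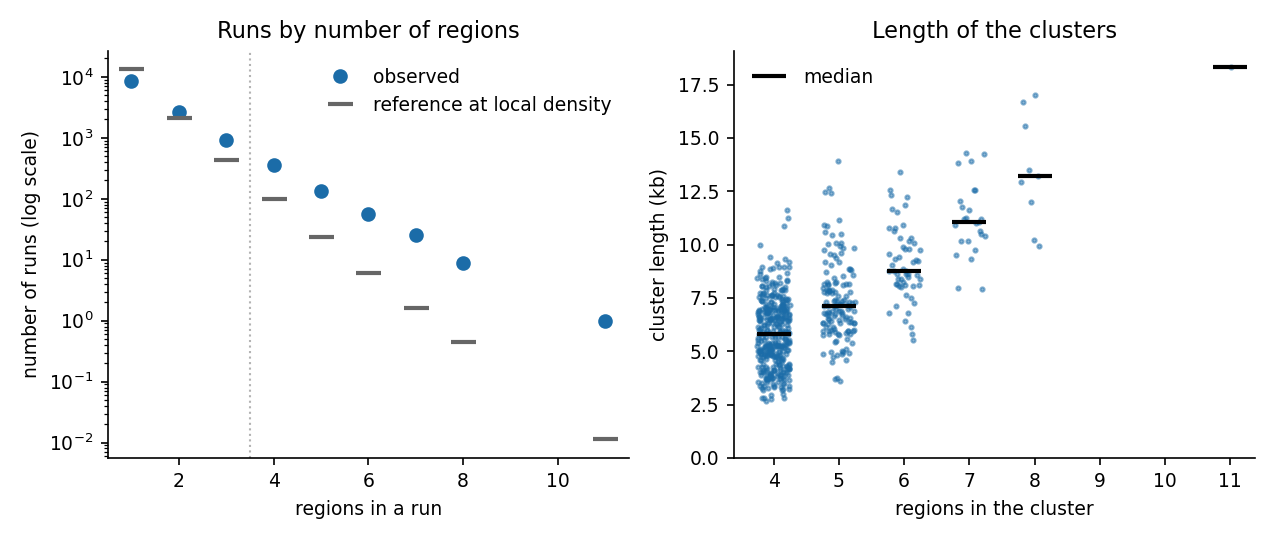
Left, number of runs (log scale) against the number of regions in the run, for the data (points) and for independent placement at the local density (dashes), with the limit of 4 regions as a dotted line. Right, length in kb of each cluster against its number of regions (points, spread sideways for legibility) with the median of each size (bars), which rises from 5811 bp for clusters of 4 to 13203 bp for clusters of 8.

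Members of a cluster lay close together and at uneven distances. The median of the 2108 gaps inside clusters was 861 bp (quartiles 389 and 1642 bp), and 658 gaps (31.2%) were shorter than 500 bp. Measured between replicate 1 summits, neighbouring members were a median of 1536 bp apart (quartiles 1044 and 2311 bp). The gaps of one cluster varied by a median coefficient of variation of 0.688 (quartiles 0.505 and 0.889), so spacing within a cluster was uneven. Just inside the rule's limit, 113 gaps measured 2900 to 3000 bp, and just outside it 126 measured 3000 to 3100 bp, so the limit does not fall at a break in the distances. One step below the size limit were 920 runs of 3 regions, with 2760 regions in all.

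Short gaps were more frequent than the density of regions alone would give. For reference, the share of regions in such runs was computed for regions placed independently at the density of their own 1 Mb bin. This is a formula and not a test, and each bin's density includes the clusters in it. It gave 2.88% of kept regions in runs of 4 or more, against 13.8% observed, a ratio of 4.80. Of all 19468 gaps between neighbouring kept regions, 34.1% were 3000 bp or shorter, against 17.7% by the formula. The surplus lay at the shortest distances. Gaps under 500 bp numbered 2010 against 633.8, those of 500 to 1000 bp 1600 against 608.4, and those of 2500 to 3000 bp 556 against 517.6. With densities taken over 250 kb the reference rose to 3.92% and the ratio was 3.52, and with 1 density for each whole chromosome the reference was 0.788% and the ratio 17.5.

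**Figure D2:**
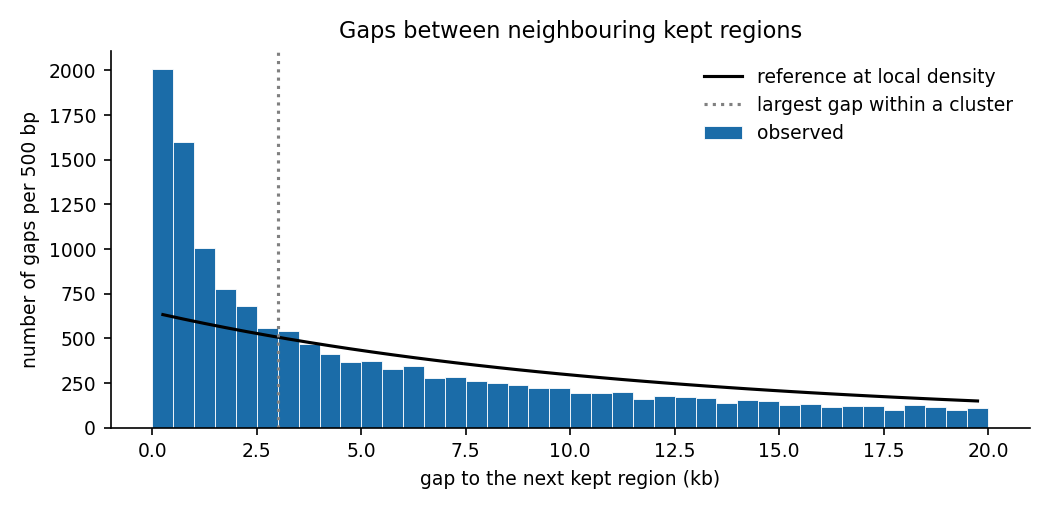
Number of gaps per 500 bp between neighbouring kept regions against gap length in kb, for the data (bars) and for independent placement at the density of each 1 Mb bin (line). The bars stand above the line up to 3500 bp, past the largest gap allowed within a cluster (dotted line), most of all below 1 kb, and under it from there on.

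The cluster with the most regions lay on chromosome 7 from 5345006 to 5363311, with 11 regions in 18306 bp and gaps of 20 to 2382 bp. In order along the chromosome, the fold enrichments of its members in replicate 1 were 7.96, 6.12, 8.52, 2.81, 11.2, 5.41, 10.8, 4.82, 7.52, 18.6 and 9.12. In replicate 2 they were 7.55, 9.26, 15.5, 2.96, 14.0, 9.95, 8.48, 2.91, 8.69, 11.7 and 12.9. The fourth and the eighth regions were the weakest in both replicates, whereas the strongest was the tenth in replicate 1 and the third in replicate 2. The tenth, from 5361032 to 5361894, had a mean fold of 15.1 ± 4.89 (SD, n = 2). Its summit was covered by 238 ChIP fragments in replicate 1 (exact 95% Poisson interval 208.7 to 270.2) and by 81 in replicate 2 (64.3 to 100.7). The eighth and ninth regions were separated by only 20 bp. No peak of a single replicate fell between its members.

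The other large clusters ranged from weak throughout to a mix of strong and weak regions. Of the 9 clusters with 8 regions, the shortest spanned 9926 bp on chromosome 2 from 2842441 to 2852366. One region stood out in it, from 2848776 to 2849841, with a fold of 16.3 in replicate 1 and 14.2 in replicate 2. Its other members lay between 2.86 and 7.50 in replicate 1 and between 2.29 and 8.12 in replicate 2, so no other member reached it in either replicate. A second cluster of 8 on chromosome 2, from 48089157 to 48099360, was weak throughout, with folds of 2.93 to 5.38 in replicate 1 and 2.46 to 7.27 in replicate 2. On chromosome 1, from 50135774 to 50152454, the fourth, sixth and seventh members were strong in both replicates. The sixth, from 50148982 to 50149647, had 13.8 in replicate 1 and 24.9 in replicate 2, the fourth had 16.6 and 13.8, and the seventh had 12.2 and 10.5, whereas the first, the fifth and the eighth members were at 3.68 or below in both replicates. On chromosome 3, from 36327759 to 36344785, the first, the sixth and the last regions reached a fold of 10 in both replicates. The first had 15.3 in replicate 1 and 12.1 in replicate 2, the sixth had 11.5 and 16.4, and the last had 10.5 and 12.2. The fifth, the member before the sixth, was the weakest in both with 2.32 and 2.17. This cluster also had 1 region of 1500 bp or wider inside it, which the rule left out.

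Of the 10 clusters with the most regions, 5 lay near the start of chromosome 8. The stretch from 1411286 to 2717991 held all 5, and 10 clusters in all. Their 63 members made up 40.1% of the 157 kept regions of that 1.31 Mb stretch. The stretch was drawn around these 5 clusters and begins and ends at cluster edges, which favours a high share. Over all kept regions the share was 13.8%, and in 1 Mb bins with 100 or more kept regions per Mb it was 22.8%. The cluster from 1411286 to 1426837 had a median fold of 7.37 in replicate 1 and 6.91 in replicate 2, and its first region, from 1411286 to 1412297, had 11.5 and 13.7. In the cluster from 1858330 to 1870310 the medians were 6.61 and 6.06, and the fifth region, from 1862602 to 1864003, had 15.4 and 11.1, while the sixth had 7.01 and 13.6. The cluster from 1553634 to 1567112 was weaker, with medians of 4.28 and 3.46 and its highest values, 6.68 and 5.90, at the second region. In the cluster from 2361660 to 2374862 the third region had 311 ChIP fragments in replicate 1 and 148 in replicate 2, more than the first region with 154 and 70. Its fold was 4.08 and 4.21, over control backgrounds of 75.0 and 34.4, far above the list medians of 17.0 and 8.60. The cluster from 2705072 to 2717991 differed between replicates in both directions, with 16.3 in replicate 1 and 7.80 in replicate 2 at its first region, and 3.98 and 9.06 at the fifth.

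**Figure D3:**
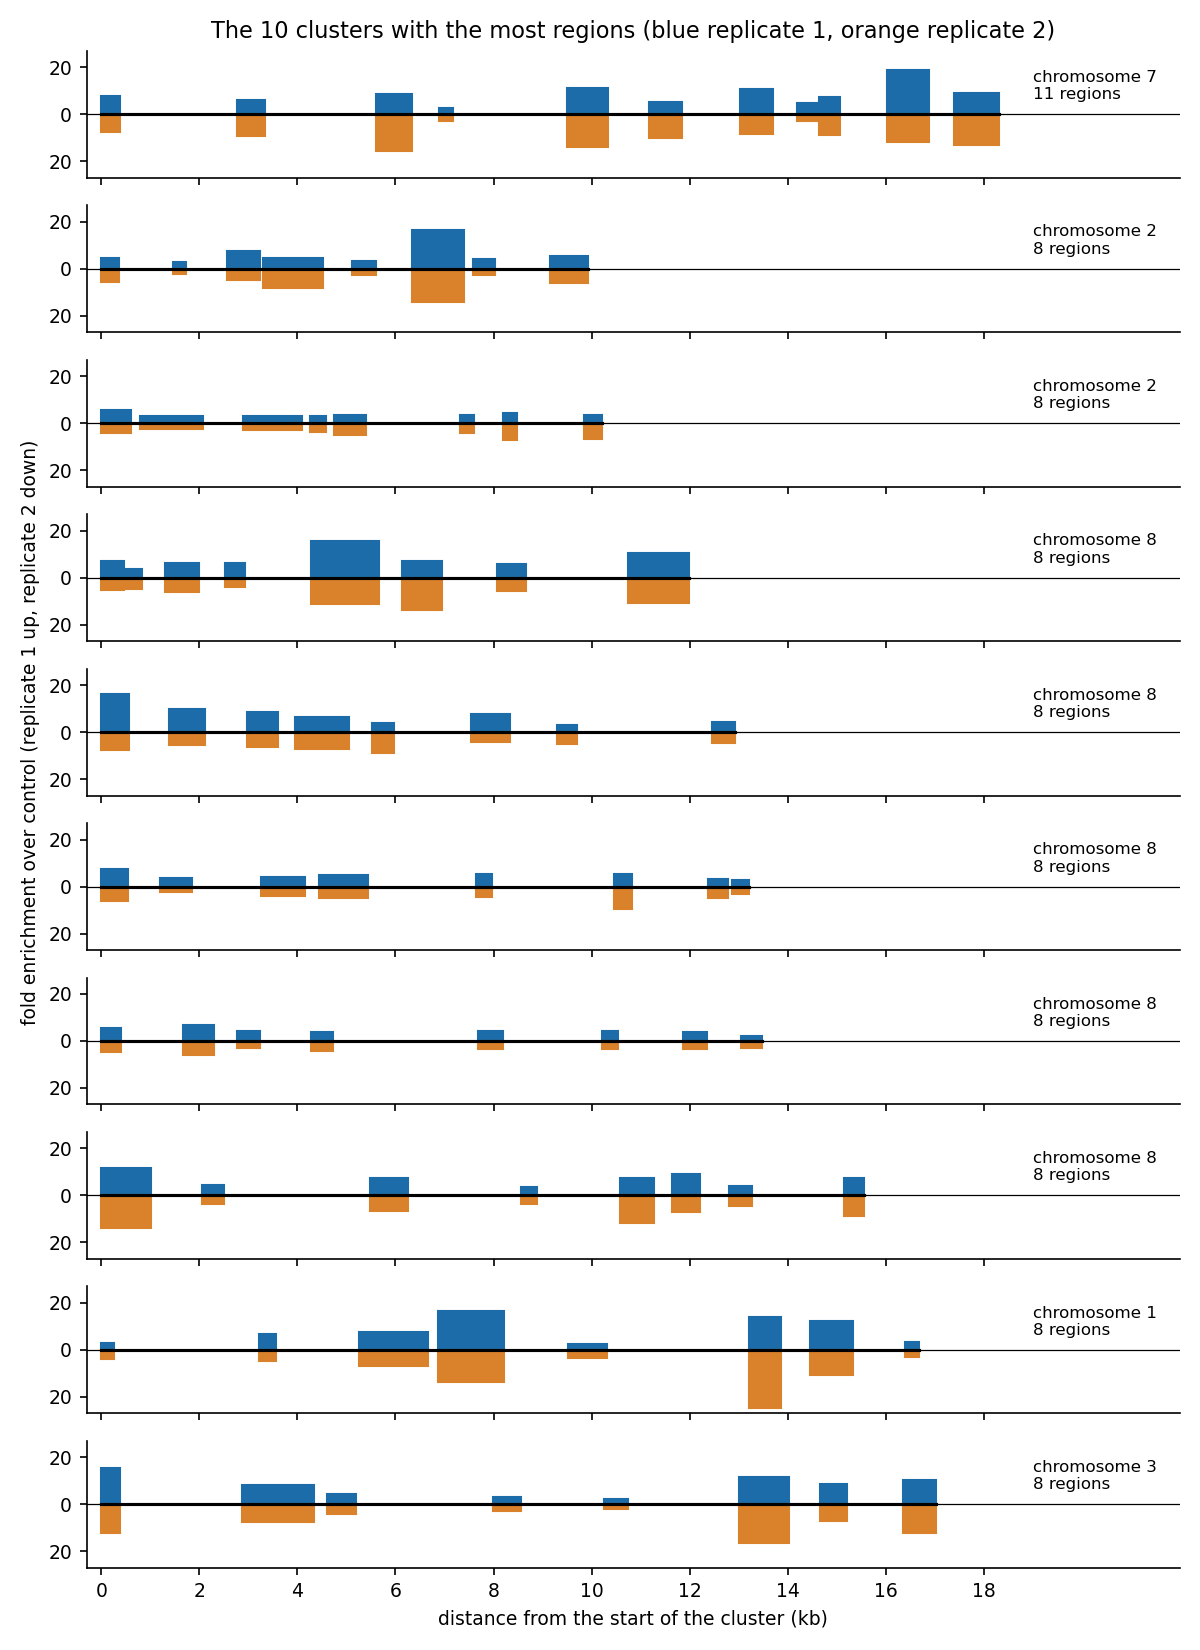
The 10 clusters with the most regions, each drawn to scale from its first base, with distance in kb along the horizontal axis. Each block is a member region, its height the fold enrichment over control in replicate 1 (blue, upward) and replicate 2 (orange, downward), and strong blocks such as the tenth of the chromosome 7 cluster (18.6 and 11.7) stand among weak ones.

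In the 5 clusters with the highest mean fold, the mean over members of the lower of the 2 folds was 10.4 to 11.4. A mean above 10 requires at least 1 region with a fold above 10 in both replicates. Ranked by this mean, the first was a cluster of 7 on chromosome 5 from 39859117 to 39868630. Its folds in order were 3.98, 8.73, 10.7, 11.8, 30.2, 18.7 and 5.04 in replicate 1, and 3.67, 9.94, 18.7, 13.0, 21.7, 21.4 and 4.38 in replicate 2. In both replicates the fifth region, from 39863245 to 39863985, was the highest and the outermost ones the lowest. That region had the highest fold of the whole replicate 1 list, with 342 ChIP fragments in replicate 1 (exact 95% Poisson interval 306.7 to 380.2) and 245 in replicate 2 (215.3 to 277.7), and summits 12 bp apart.

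No member of a cluster of 4 on chromosome 7, from 29044723 to 29050226, was below 5.53 in either replicate. Its first region reached 16.2 in replicate 1 and 25.4 in replicate 2. Next came the fourth region in replicate 1, with 11.6, and the third in replicate 2, with 12.2 against 11.6 at the fourth. In the cluster of 4 on chromosome 2 from 1374607 to 1381516 the first region had 22.5 and 20.1, and the other members had 5.58 to 10.2 in replicate 1 and 6.63 to 11.4 in replicate 2. On chromosome 1 from 40804056 to 40810628, the second of 4 regions had 21.3 and 25.5, a mean of 23.4 ± 2.96 (SD, n = 2), and the fourth had 13.7 and 10.1. In each of these clusters the same region was the highest in both replicates. A cluster of 5 on chromosome 4 from 1578349 to 1586578 had a pair of dominant regions side by side, the third with 24.8 and 19.7 and the fourth with 18.9 and 22.3, 1045 bp apart. The fifth region differed most between replicates, with 10.1 in replicate 1 and 4.70 in replicate 2.

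The 5 shortest clusters were mostly weak, which does not tell how fold goes with length over all clusters. The shortest of all, 2651 bp on chromosome 2 from 46071303 to 46073953, held 4 regions separated by 183 to 272 bp. Its first region had a fold of 12.3 in replicate 1 and 13.1 in replicate 2, and the others had 3.30 to 8.08 and 2.91 to 4.58. On chromosome 9 from 21835772 to 21838535 no member exceeded 6.46 in either replicate, and on chromosome 10 from 10612679 to 10615477 none exceeded 6.67. The clusters on chromosome 1 from 28670545 to 28673353 and on chromosome 6 from 17552079 to 17554902 reached at most 4.91 and 5.53. Between 61.3% and 80.3% of the length of these 5 lay in member regions, against 43.8% in the median cluster. Choosing the shortest runs of 4 or more regions favours short gaps, and so a high share.

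Over all members, fold enrichment was slightly above that of the other kept regions in both replicates. In replicate 1 the median fold was 5.89 among members (quartiles 4.13 and 8.44) and 5.65 among the 16790 kept regions outside clusters (quartiles 4.08 and 8.04), a ratio of 1.04. In replicate 2 the medians were 5.50 and 5.15, a ratio of 1.07. The distributions overlapped almost entirely. The median member had 110 ChIP fragments at its summit in replicate 1 and 49 in replicate 2, against 103 and 45 outside clusters, and its control background was 1.06 times that outside in both lists. Members were also wider, with a median of 565 bp against 521 bp. By chromosome, the member median was the higher on 8 of 11 chromosomes in replicate 1 and on 10 of 11 in replicate 2. Chromosome 2 had the lower member median in both, 5.38 against 5.67 in replicate 1 and 5.15 against 5.20 in replicate 2. By density of the 1 Mb bin, the replicate 1 member median was the lower in bins under 20 kept regions per Mb, 5.54 against 5.81. It was also the lower in bins of 80 to 100, 5.55 against 5.74, and the higher in the other classes. In replicate 2 the member median was the higher in every density class. Outside clusters, the regions that shared a 1 Mb bin with a member had medians of 5.64 and 5.13, close to all others. With 1 list per replicate and regions that are no replicates of each other, these differences carry no test.

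Strong regions made up a larger share of members than of other kept regions. In both lists a fold of 10 or higher was reached by 7.56% of all kept regions, and by 269 members (10.0%, 95% Wilson interval 8.93 to 11.2) against 1204 regions outside (7.17%, interval 6.79 to 7.57). The interval covers counting over regions only and takes them as independent. By run size, this share was 6.24% for regions alone, 7.95% in runs of 2, 8.59% in runs of 3, 9.58% in runs of 4 and 14.5% in runs of 8 or more, the last with an interval of 8.47 to 23.6 on 83 regions. The medians were higher in runs of 2 to 6 than for regions alone in both replicates, but did not rise further in longer runs. In replicate 1 they were 5.49 for regions alone, 5.825 in runs of 2, 6.19 in runs of 6 and 5.40 in runs of 8 or more. In replicate 2 they were 5.00 for regions alone, 5.30 in runs of 2, 5.72 in runs of 6 and 5.39 in runs of 8 or more. Of the top 100 kept regions by the lower of their 2 folds, 19 were members, and of the 1000 highest 183 (18.3%), against 13.8% of all kept regions. A fold of 5 or higher in both was reached by 48.8% of members and by 44.2% of all kept regions.

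**Figure D4:**
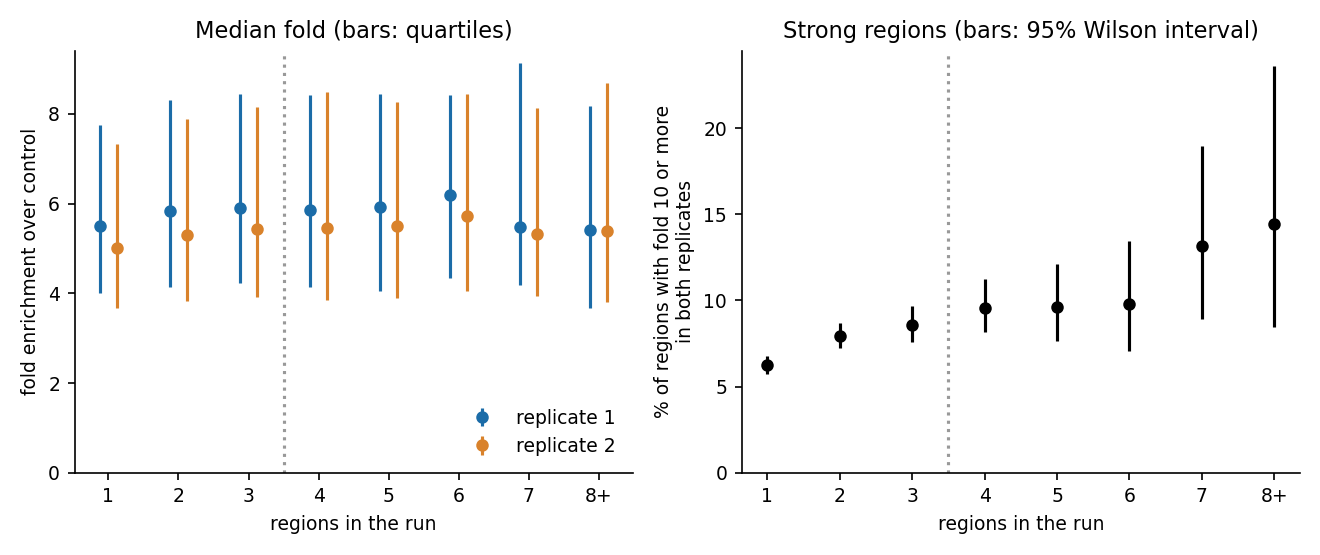
Left, median fold enrichment over control of kept regions in replicate 1 (blue) and replicate 2 (orange) by the number of regions in their run, with quartiles as bars. Right, percent of regions with a fold of 10 or more in both replicates with 95% Wilson intervals, from 6.24% for regions alone to 14.5% in runs of 8 or more, while the medians on the left stay between 5.00 and 6.19 (the dotted line marks the limit of 4 regions).

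Clusters mixed strong and weak members. In the median cluster the strongest member had 2.80 times the lower-of-2 fold of the weakest (quartiles 2.13 and 3.56). Differences between clusters made up 5.82% of the variance of the log2 lower fold, and the rest lay between members of the same cluster, with an SD of 0.672. Folds of neighbouring members were nearly unrelated, with a Spearman rho of 0.08 in replicate 1 and 0.06 in replicate 2 over 2108 neighbour pairs. The values were also 0.08 and 0.06 over the 4525 neighbour pairs outside clusters that were at most 3000 bp apart. Over the 5346 neighbour pairs of kept regions more than 20 kb apart rho was 0.01 in both replicates. At least 1 member with a fold of 10 or more in both replicates occurred in 207 clusters (35.6%), and 51 clusters had more than 1. In 32 clusters every member reached a fold of 5 in both replicates, and in 33 none did. Over single regions, a fold of 10 in both was reached by 10.0% of members and 7.56% of all kept regions. For a fold of 5 the shares were 48.8% and 44.2%. The counts of clusters depend on these shares and on cluster size, and no reference for them was computed. The strongest member stood at an end of its cluster in 272 clusters (46.8%), where end positions made up 44.7% on average.

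Members kept much of their order of strength between replicates. The Spearman rho of fold between replicates was 0.74 across the 2689 members and 0.68 across the other kept regions, a description without a p. Among members, log2(replicate 2 fold / replicate 1 fold) had a median of -0.02 and an SD of 0.53, and among the others -0.07 and 0.54. Summits of the replicates were a median of 35 bp apart in members and 36 bp in the others. In 364 clusters (62.7%) the same member was the strongest in both replicates, where a single member is on average 22.4% of its cluster's regions. The log2 ratios of one cluster's members hardly moved together, as differences between clusters made up 1.92% of their variance.

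Runs were also looked for in each list alone. In replicate 1, 8592 of 33507 peaks narrower than 1500 bp (25.6%) formed 1707 runs by the same rule, and in replicate 2, 4980 of 22637 peaks (22.0%) formed 1021 runs. The reference at local density was 9.04% and 4.12%. Of the replicate 1 runs 40.9% overlapped a replicate 2 run, and of the replicate 2 runs 68.5% overlapped a replicate 1 run. Among the 581 clusters 578 overlapped a run of replicate 1 and 557 a run of replicate 2, an overlap that their making from the same peaks favours.

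Further peaks outside the rule lay within some clusters. Peaks of replicate 1 alone lay inside 175 clusters, 214 in all, with a median fold of 3.06, near the 3.18 of all 13768 such peaks on the chromosomes. Peaks of replicate 2 alone lay inside 24 clusters. Regions of 1500 bp or wider, which the rule left out, lay inside 13 clusters, and 52 clusters (8.95%) had one inside or within 3000 bp. The share was 7.49% for runs of 2, 6.96% for runs of 3 and 5.28% for kept regions that stood alone. The stretch searched is longer for longer runs, so these shares do not tell whether clusters lie nearer to wide regions. Most members were a single peak in each list. Several replicate 2 peaks were joined in 134 members (4.98%), against 3.87% outside clusters, and several replicate 1 peaks in 17 members (0.632%), against 0.637% outside. Whether neighbouring members are pieces of one wider enrichment was not tested, as the lists do not give the signal between peaks.

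The share of regions in clusters was higher in denser stretches, and clusters also occurred in sparse ones. In 1 Mb bins with 100 or more kept regions per Mb, 22.8% of the regions were members (95% Wilson interval 21.2 to 24.5), against 8.44% by the reference. In bins with fewer than 20 per Mb, 5.59% were (interval 4.62 to 6.75), against 0.029%. The ratio of the observed share to the reference was thus lower in dense than in sparse bins, 2.70 against 192. With so small a reference in sparse bins, few clusters make a large ratio. The ratio therefore does not tell where regions cluster more. The bin with the most clusters was on chromosome 8 from 57 to 58 Mb, with 8 clusters and 34 members among 106 kept regions, and 259 of 501 bins held a cluster. Clusters themselves were usually far apart, with a median of 303950 bp between neighbours. The closest pair, each of 4 regions, lay 3705 bp apart on chromosome 2, from 47183407 to 47187725 and from 47191431 to 47194608. Beyond the ends of a cluster the next kept region was a median of 12245 bp away, and 84 clusters had none within 20 kb on either side.

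**Figure D5:**
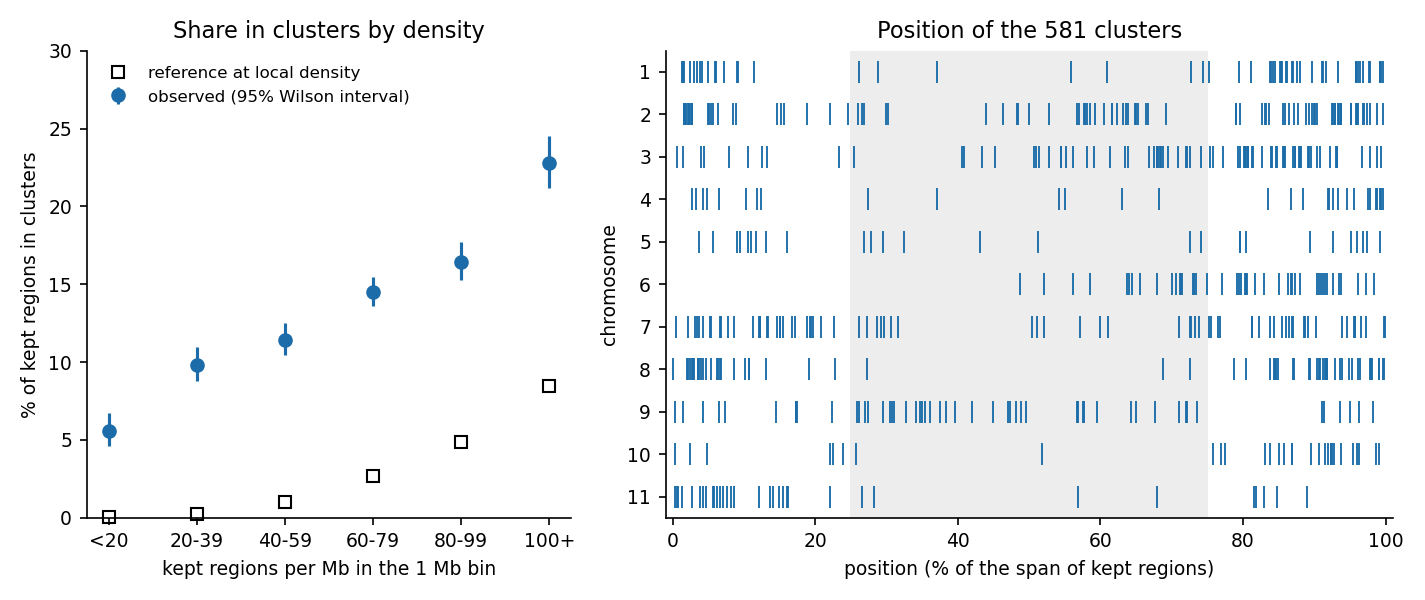
Left, percent of kept regions in clusters by the number of kept regions per Mb of their 1 Mb bin, observed with 95% Wilson intervals (points) and by independent placement at that density (squares). Right, position of each of the 581 clusters (ticks) on the 11 chromosomes, as percent of the span of kept regions, with the middle of each span shaded, where chromosome 9 holds most of its clusters and chromosomes 8 and 10 few.

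By position, 71.6% of clusters lay in the outer parts of the chromosomes, the 25% of the span at each end, close to the 69.3% of kept regions found there. Chromosome 8 had 95.2% of its 62 clusters in the outer parts and chromosome 10 had 93.5% of 31, whereas chromosome 9 had 30.8% of 52. All kept regions of these chromosomes were spread in the same order, with 86.3%, 82.9% and 41.3% in the outer parts. Chromosomes 7 and 2 had the most clusters per Mb, 1.87 and 1.86, and chromosome 11 the fewest, 0.618. The share of kept regions in clusters was highest on chromosome 7 (17.1%) and chromosome 2 (16.7%), and lowest on chromosome 9 (10.3%), although chromosome 9 had the most kept regions per Mb, 59.3. On chromosome 6 it was 15.0%, against a reference of 5.21%, the highest reference of the 11. On chromosome 8 a stretch of 26.1 Mb, from 17197456 to 43290726, held 175 kept regions and no cluster.

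Clusters in sparse surroundings were few and of ordinary length. In 22 clusters the median member's bin had fewer than 20 kept regions per Mb, 17 of them in the middle part of a chromosome, and their median length was 6013 bp. The following cluster was chosen after its values were seen. On chromosome 10, 6 regions within 6396 bp, from 22926929 to 22933324, stood between cluster-free stretches of 11.5 and 10.7 Mb, in a bin of 9 kept regions. Their folds in order were 12.5, 2.44, 9.75, 3.46, 2.86 and 7.99 in replicate 1, and 13.8, 2.96, 12.7, 3.54, 3.18 and 10.9 in replicate 2. In both replicates the first, the third and the sixth regions had the highest folds. By these folds they are called strong here and the others weak. The strong ones had 195 to 241 ChIP fragments in replicate 1 and 137 to 160 in replicate 2, and the weak ones 48 to 58 and 28 to 30. The strong regions were also the wide ones, 910, 1310 and 1055 bp against 256 to 429 bp.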

How the data were processed

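ChIP-seq peak lists of the 2 WOX9-like ChIP replicates were used. Per the submitters' processing notes, Bowtie 0.12.7, SAMtools 0.1.18 and MACS2 were used, with settings and genome build not given in the sources used here. The authors deposited for each peak the fold enrichment over control (a ratio), −log10 p and q values, a whole-number score and the summit position. The score was not used. Peaks were called per replicate, as the 2 deposited lists show, with 34876 and 23218 peaks and a lowest −log10 q of 2.00 and 2.03. The gene table at hand is of another assembly and was not used.

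Peaks were merged in Python 3.11.15 (pandas 2.3.3, SciPy 1.17.1), and each region took the highest-fold peak of each list. The reference share takes gaps as independent exponential lengths at the density of each 1 Mb bin. Library depth is unknown. ChIP fragments and background at each summit were computed from the deposited fold and p, with the replicate 1 ChIP scaled by 0.994. Whole counts fitted −log10 p within 0.002 for 100% of peaks. Poisson intervals cover ChIP counting error only, and PCR copies cannot be told from separate molecules. The steps were tested on simulated data. Members and rules were chosen with earlier results of these data known. Named were the 10 clusters with the most regions, the 5 of highest mean lower-of-2 fold and the 5 shortest. No test across samples was possible with 2 lists of 1 condition. Alternatives varied the gap, run size, width, overlap, q-value, density window and replicate.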

Additional observations from a re-analysis of the deposited data

How the results depend on the processing

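The number of clusters and members followed the limits of the rule. Gaps of at most 2000 bp gave 376 clusters with 1680 regions, and gaps of at most 5000 bp 959 with 4768. Runs of 3 or more gave 1501 clusters with 5449 regions, and runs of 5 or more 226 with 1269. Requiring overlap of 50% of both peaks gave 361 clusters with 1632 regions. With either replicate left out there were 1021 to 1707 clusters of 4980 to 8592 peaks. The share expected at local density was 1.05% with gaps of 2000 bp, 9.0% with 5000 bp, 9.53% for runs of 3 or more, 0.878% for 5 or more, 3.38% with no width limit, 1.86% with 50% overlap, 2.39% with −log10 q of at least 5, and 4.12% to 9.04% with a replicate left out. Density windows of 250 kb, 5 Mb and the whole chromosome gave 3.92%, 2.35% and 0.788%. The observed share was above it in all 12 alternatives, by 2.72 to 17.5 times. The median fold of members stayed above that outside clusters in all 8 alternatives of each replicate. It was 4.54 in replicate 1 without replicate 2, where peaks of a single list enter. In replicate 2 it was 5.84 with −log10 q of at least 5, which drops weak peaks, and 5.26 without replicate 1. Spearman rho between replicates was 0.718 with gaps of 5000 bp and 0.714 with the q-value limit. Both were below the 95% interval of 0.721 to 0.756 around the 0.739 given, and the cause was not tested. That interval takes regions as independent, and the alternatives reuse many of the same regions, so it is only a rough limit. Of 80 values computed under alternatives, 49 moved by less than the limits used (1.5 times for counts and lengths, the SD of the 2 replicate medians for fold, a 95% interval for the others). No paired analysis was possible because the 2 lists are replicates of 1 group and no groups were compared; the controls entered only inside the deposited fold and p. Total depth is unknown, and precision rests on the fragments at a summit, a median of 110 and 49 in members, and on the control.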
